A study of Homo sapiens with 6 samples.

Results

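ATF4, 4 of its stress-response targets and 5 enzymes of serine synthesis and mitochondrial one-carbon metabolism were followed in IMR90 cells depleted of macroH2A1. The 10 genes were chosen by name (ATF4, DDIT3, TRIB3, CHAC1, ASNS, PHGDH, PSAT1, PSPH, SHMT2 and MTHFD2). All 10 were found among the 57659 genes of the deposited files, and all 10 had enough reads to be tested. IMR90 is a widely used strain of primary fibroblasts from human fetal lung, grown here in serum-containing medium. The 3 tested libraries came from cells expressing a short hairpin RNA against macroH2A1, a histone H2A variant with a large globular domain, and the 3 control libraries came from cells expressing a hairpin against luciferase, which human cells lack. No further treatment is labelled, and the number of hairpin sequences is not stated, so an effect of the hairpin itself and of macroH2A1 loss cannot be told apart. The series calls the libraries of each group biological replicates.

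ATF4 is a bZIP transcription factor of the integrated stress response. Kinases that sense amino acid shortage, misfolded protein, heme lack or viral RNA phosphorylate the initiation factor eIF2alpha, general translation slows, and ATF4 mRNA is translated more, so that much of its control lies outside mRNA level. ATF4 binds C/EBP-ATF response elements with C/EBP partners and raises genes for amino acid uptake and synthesis, among them the serine pathway that branches from glycolysis and feeds one-carbon units to mitochondrial folate enzymes. In fibroblasts, serine and glycine made by this route are also used to build collagen.

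The knockdown libraries held 3741087 to 5322851 gene counts and the control libraries 3744716 to 6421605. Over these raw totals, 3 counts correspond to 0.564 to 0.802 and to 0.467 to 0.801 CPM (counts scaled to a library total of 1000000) in these groups. The gene levels below are CPM over totals scaled by TMM, so these floors are approximate for them. MACROH2A1 itself had 39.0, 43.7 and 39.9 CPM with its own hairpin, against 92.1, 88.0 and 84.8 CPM with the luciferase hairpin (log2 fold change -1.11, SE 0.08, edgeR quasi-likelihood test, adjusted p = 0.000917). Fibroblast markers were high in both groups, and all 12 had enough reads to be tested. Of these, 7 rose in the knockdown, where 3.90% of all genes tested were called higher. Their summed level was 12933 to 13728 CPM in knockdown and 8221 to 9334 CPM in control libraries, so it differed between the groups. EPCAM, CDH1, SFTPB and SFTPC of the 8 epithelial markers stayed at or under 1 CPM in every library, as did PECAM1 and CDH5 of the 7 endothelial and PTPRC, CD14, LYZ and CD3E of the 6 blood markers. The summed epithelial markers were 7.12 to 11.8 CPM in knockdown and 27.4 to 29.7 CPM in control libraries, and the summed endothelial markers 137 to 145 CPM in knockdown and 61.1 to 65.4 CPM in control libraries, carried mainly by KRT18 and by TEK, with KDR also higher in the knockdown. The summed blood markers were 4.15 to 5.44 CPM in knockdown and 5.49 to 7.28 CPM in control libraries. All 6 smooth muscle and pericyte markers had enough reads to be tested and none passed the test, with sums of 348 to 389 CPM in knockdown and 396 to 431 CPM in control libraries, which did not overlap. The part of these shifts in the values below was not tested.

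PHGDH and PSAT1, which catalyse the entry steps of serine synthesis, rose in the knockdown, and the other 8 genes did not pass the test over all genes. Of the 13445 genes tested, 8.21% were called in either direction and 3.90% were called higher and 4.31% lower (edgeR, Benjamini-Hochberg adjusted p under 0.05), beside 2 higher and 0 lower of these 10. The log2 fold change was positive for 9 of the 10 genes, with a median of 0.38 against a median of 0.01 over all genes tested. In 7 of the 10 every knockdown library lay above every control library, a pattern seen in 14.5% of all genes tested, and in none did every knockdown library lie below (15.9% of all genes). The list was chosen with earlier results of these data known, so these shares describe it and are no test of it. In bulk RNA, a change in the share of expressing cells and a change in RNA per cell cannot be told apart.

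**Figure D1:**
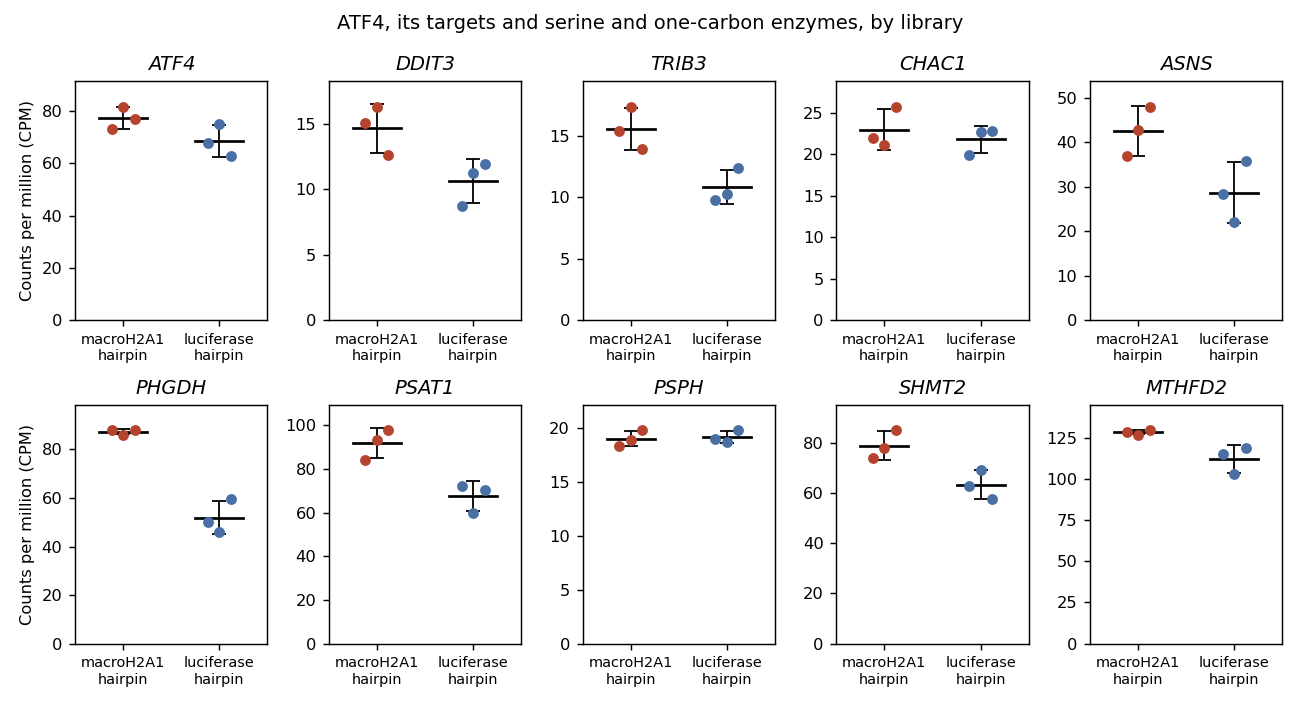
Normalized level of each of the 10 genes (vertical axes, CPM from 0) in the 3 macroH2A1 hairpin libraries, left, and the 3 luciferase hairpin libraries, right; points are libraries, horizontal lines means and bars SD. PHGDH shows the widest gap, at 86.1 to 87.9 CPM against 46.2 to 59.7 CPM, while PSPH, CHAC1 and ATF4 have groups that overlap.

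The stretch before the start of each gene was read from RefSeq (build GRCh38.p14, which is not the build of the counts) because ATF4 acts through promoter elements in several of these genes. The table holds 8 of the 10, and PSPH and SHMT2 are the others. The 250 bases upstream of the start are printed for the pair that rose and for the pair that holds the core of the response element, written 5′ to 3′ on the strand of the gene, with matches in capitals of that core (TGATGNAA) or of a CCAAT box (CCAAT), on either strand.
PHGDH (chr1:119711684-119711933, plus strand): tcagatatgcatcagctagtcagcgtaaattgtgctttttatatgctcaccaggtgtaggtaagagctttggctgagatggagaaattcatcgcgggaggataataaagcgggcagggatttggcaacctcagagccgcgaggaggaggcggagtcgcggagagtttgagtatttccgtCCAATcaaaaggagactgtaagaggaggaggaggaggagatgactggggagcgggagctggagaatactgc
PSAT1 (chr9:78296875-78297124, plus strand): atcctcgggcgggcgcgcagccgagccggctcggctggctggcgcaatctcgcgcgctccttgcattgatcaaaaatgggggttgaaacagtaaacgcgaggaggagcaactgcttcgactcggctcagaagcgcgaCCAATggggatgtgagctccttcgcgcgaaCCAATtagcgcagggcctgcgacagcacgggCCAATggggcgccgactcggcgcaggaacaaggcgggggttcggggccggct
ASNS (chr7:97872409-97872658, minus strand): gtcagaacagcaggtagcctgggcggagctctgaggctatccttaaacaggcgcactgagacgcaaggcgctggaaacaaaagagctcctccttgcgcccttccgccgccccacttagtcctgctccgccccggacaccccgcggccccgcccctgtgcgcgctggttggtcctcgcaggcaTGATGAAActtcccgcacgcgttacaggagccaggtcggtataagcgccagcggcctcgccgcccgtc
CHAC1 (chr15:40953221-40953470, plus strand): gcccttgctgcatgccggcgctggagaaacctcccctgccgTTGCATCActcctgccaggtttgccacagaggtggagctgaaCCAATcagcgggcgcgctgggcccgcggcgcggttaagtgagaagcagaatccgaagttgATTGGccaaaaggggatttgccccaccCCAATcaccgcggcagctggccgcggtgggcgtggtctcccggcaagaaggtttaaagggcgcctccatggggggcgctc
The core stood 68 to 61 bases before the printed start in ASNS and 209 to 202 bases before the start, on the reverse strand, in CHAC1. Those letters were in no other window of the 8 genes, PHGDH and PSAT1 included. ASNS has 2 starts, and the window of its other start held no core. ATF4 and DDIT3 also have 2 starts each and TRIB3 has 3, and all of their windows were read. Of 35116 windows of this length in the table, 3.14% held the core, 32.0% held CCAAT and 42.6% held a GC box (GGGCGG) on either strand. CCAAT was found 1 time for PHGDH, 3 times each for PSAT1 and CHAC1, 2 times each for DDIT3 and MTHFD2, and in no window of ATF4, TRIB3 or ASNS. The core and CCAAT matches did not overlap. Other sites, in introns or farther upstream, were not searched, and a match is a description of letters, not of binding. ASNS and CHAC1, the pair with the core in this window, had log2 fold changes of 0.57 and 0.08, and neither passed the test.

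PHGDH, the dehydrogenase that takes 3-phosphoglycerate out of glycolysis, had 87.8, 86.1 and 87.9 CPM in the knockdown libraries, against 49.99, 46.2 and 59.7 CPM in the control libraries. The knockdown libraries were nearly level with each other and stood well above the highest control, which was replicate 3. Its mean was 87.3 ± 0.996 CPM with the macroH2A1 hairpin and 52.0 ± 6.99 CPM with the luciferase hairpin (SD, n = 3 each), 1.68-fold higher (a log2 difference of 0.75 with SE 0.10, edgeR adjusted p = 0.00897). By p it ranked 292 of the 13445 genes. PHGDH kept its call in all 16 alternatives at an adjusted p under 0.05, with log2 fold changes from 0.67 to 0.86. The main fit also passed the stricter adjusted p under 0.01. With library totals its edgeR adjusted p was 0.0133, with a replicate block 0.0352, and with a library left out from 0.00948 to 0.0441.

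PSAT1, the transaminase of the next step, had 84.3, 93.3 and 97.8 CPM in the knockdown libraries, against 72.5, 59.9 and 70.6 CPM in the control libraries. The lowest knockdown library, replicate 1, was above the highest control library. The mean was 91.8 ± 6.88 CPM in knockdown and 67.6 ± 6.77 CPM in control (SD, n = 3 each), 1.36-fold higher (log2 fold change 0.44, SE 0.10, edgeR adjusted p = 0.0454). This call was close to the threshold: it was lost when any 1 of the 6 libraries was left out (adjusted p from 0.0647 to 0.135), with library totals in place of scaling factors, and with a replicate block. The files hold 4 pseudogene copies of PSAT1, with 103 counts in the knockdown and 61 in the control group, and reads shared with such copies were not counted for either.

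PSPH, the phosphatase that releases serine in the last step, did not move with its pathway. It had 18.4, 18.9 and 19.8 CPM in knockdown and 19.0, 18.7 and 19.8 CPM in control libraries, and the groups covered the same range. The log2 fold change was -0.01 (SE 0.09, edgeR adjusted p = 0.970), and its sign changed with the setting, from -0.04 to 0.02. PSPH has a near copy, PSPHP1, with 26 counts in the knockdown and 27 in the control group, so its own count may be incomplete.

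Because a call in one gene and not in another is no test of their difference, the ratio of counts within each library was also compared. PHGDH had 4.77, 4.55 and 4.43 counts for each PSPH count in the knockdown libraries, against 2.63, 2.46 and 3.01 in the control libraries, a 1.702-fold higher ratio. The PHGDH to ATF4 ratio was 1.20, 1.05 and 1.14 in knockdown and 0.737, 0.616 and 0.950 in control libraries, 1.495-fold higher. In both ratios the groups did not overlap, and the exact two-sided permutation p was 0.1, the smallest that 3 libraries against 3 can give. Groups without overlap always give this p, and it stayed at 0.1 after adjustment over the 3 ratios compared. The ratios were chosen after the values were seen, so they describe these libraries and are no test of a difference between genes.

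SHMT2, the mitochondrial enzyme that splits serine into glycine and a one-carbon unit, had 73.8, 77.8 and 84.9 CPM in knockdown and 63.0, 69.3 and 57.6 CPM in control libraries. The groups were apart, but the gap between the nearest libraries was smaller than the range within either. Its log2 fold change of 0.32 (SE 0.10) did not pass (edgeR adjusted p = 0.0968). MTHFD2, the mitochondrial dehydrogenase and cyclohydrolase that oxidises the carried unit, had 129, 127 and 129 CPM in knockdown and 115, 103 and 119 CPM in control libraries. It was the highest of the 10 in CPM, the groups were again apart, and its log2 fold change of 0.19 (SE 0.08) did not pass (edgeR adjusted p = 0.180).

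Around these members, the mitochondrial enzymes MTHFD1L, ALDH1L2 and MTHFD2L had positive fold changes and the cytosolic MTHFD1 a negative one. MTR, another cytosolic folate enzyme described below, rose, and a contrast between compartments was not tested. MTHFD1L, which releases formate from mitochondria, rose to 76.8 ± 0.425 CPM in knockdown, against 60.5 ± 5.31 CPM in control (SD, n = 3 each), at the very edge of the threshold (log2 fold change 0.35, SE 0.08, edgeR adjusted p = 0.049995, called in 8 of 16 alternatives and, with 1 library left out, in 1 of 6). ALDH1L2, which oxidises formyl-folate there, had 86.9 ± 8.57 CPM in knockdown and 71.4 ± 8.59 CPM in control (log2 fold change 0.28, edgeR adjusted p = 0.199), and MTHFD2L, a relative of MTHFD2, had 6.17 ± 0.324 CPM in knockdown and 3.92 ± 1.16 CPM in control (log2 fold change 0.63, edgeR adjusted p = 0.195). MTHFD1, the cytosolic trifunctional enzyme, had 26.9 ± 2.42 CPM in knockdown and 33.1 ± 2.40 CPM in control (log2 fold change -0.30, edgeR adjusted p = 0.124). SHMT1, the cytosolic counterpart of SHMT2, had too few reads to be tested, with 28 counts in all knockdown and 31 in all control libraries. The ratio of MTHFD2 to MTHFD1 counts was 4.92, 4.29 and 5.19 in knockdown and 3.79, 3.01 and 3.40 in control libraries. It was 1.41-fold higher in knockdown with no overlap (exact two-sided permutation p = 0.1, the smallest possible, and 0.1 after adjustment over the 3 ratios). This ratio too was chosen after the values were seen, and it is a description, not a test.

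**Figure D2:**
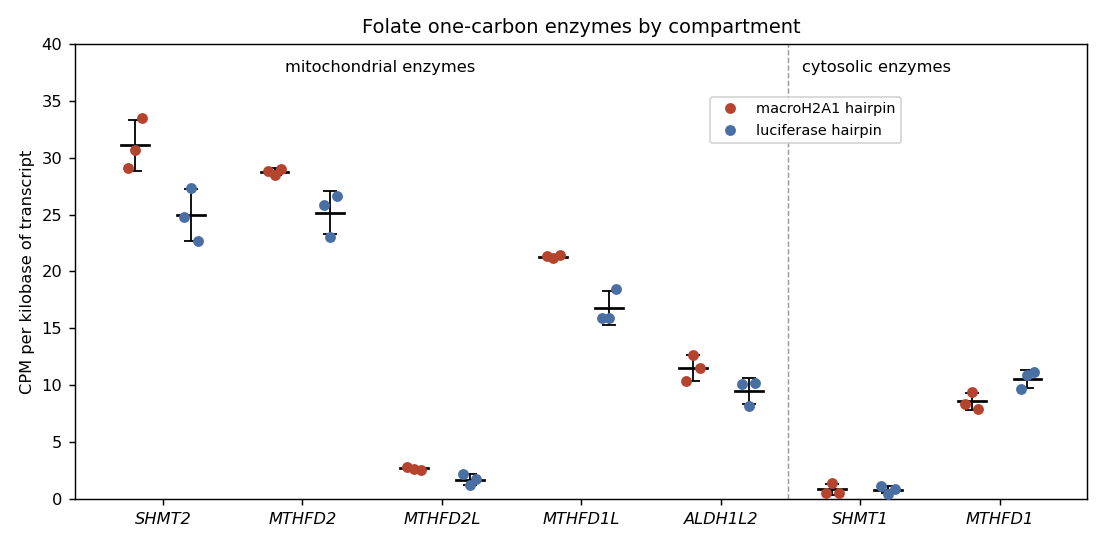
Level per transcript length (vertical axis, CPM per kilobase of the longest principal transcript) of 5 mitochondrial and, right of the dashed line, 2 cytosolic folate enzymes in macroH2A1 hairpin libraries, left of each pair, and luciferase hairpin libraries; points are libraries, lines means and bars SD. SHMT2 and MTHFD2 average 31.1 and 28.8 in knockdown libraries, against 24.9 and 25.2 in luciferase libraries, and SHMT1 averages 0.839 and 0.826 in the same order. MTR, which is also cytosolic and rose, is not drawn.

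ATF4 had 73.4, 81.8 and 76.9 CPM in knockdown and 67.9, 75.0 and 62.9 CPM in control libraries. The ranges overlapped, since control replicate 2 was above knockdown replicate 1. Its log2 fold change of 0.17 (SE 0.09) did not pass (edgeR adjusted p = 0.292), and it passed in none of 16 alternatives. Its 3 pseudogene copies held 101 counts in the knockdown and 56 in the control group. DDIT3, which encodes CHOP, a factor linked to cell death after prolonged stress, had 15.0, 16.3 and 12.6 CPM in knockdown and 8.70, 11.2 and 11.9 CPM in control libraries. The lowest knockdown library was only just above the highest control library, and the log2 fold change of 0.48 (SE 0.18) did not pass (edgeR adjusted p = 0.150).

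TRIB3, a pseudokinase that CHOP and ATF4 induce and that restrains ATF4, had 15.4, 17.4 and 13.9 CPM in knockdown and 9.81, 10.3 and 12.4 CPM in control libraries. Its groups did not overlap, and its log2 fold change was 0.53 (SE 0.15, edgeR adjusted p = 0.0839). CHAC1, a glutathione-degrading enzyme that usually follows ATF4 and CHOP, had 21.95, 21.1 and 25.7 CPM in knockdown and 19.9, 22.6 and 22.7 CPM in control libraries, and the groups overlapped (log2 fold change 0.08, SE 0.11, edgeR adjusted p = 0.739). ASNS, which makes asparagine, had 36.8, 42.6 and 47.9 CPM in knockdown and 28.3, 21.95 and 35.7 CPM in control libraries. The groups came within a small step of each other, at knockdown replicate 1 and control replicate 3. Its log2 fold change of 0.57 (SE 0.18) was the next largest after that of PHGDH but did not pass with edgeR (adjusted p = 0.116).

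The authors' deposited table, made with another tool, listed 3 of the 10 under an adjusted p of 0.05 and 5.46% of its 11638 genes as higher at that level. In the authors' deposited table the log2 ratio was 0.76 for PHGDH (adjusted p 2.02e-11), 0.45 for PSAT1 (adjusted p 0.000533) and 0.33 for SHMT2 (adjusted p 0.0270). ASNS had an adjusted p of 0.0550 and PSPH of 1.0 in the authors' deposited table. When only the genes of that table were tested with edgeR, ASNS, TRIB3, DDIT3 and SHMT2 passed beside PHGDH and PSAT1, 6 of 10 where 8.71% of all genes were called higher. ASNS also passed with DESeq2, which called 4.71% of genes higher, and without the filter on low counts, and TRIB3 among genes with at least 50 counts in 3 libraries.

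**Figure D3:**
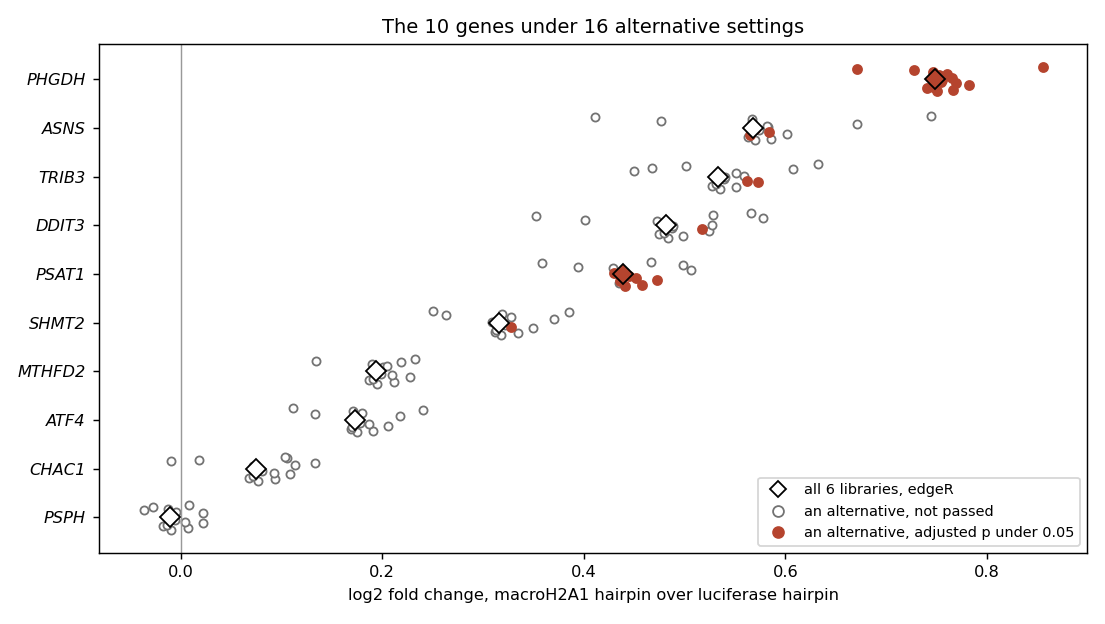
log2 fold change, macroH2A1 hairpin over luciferase hairpin (horizontal axis), of each gene with all libraries (diamonds) and under 16 alternatives (circles); filled symbols have an adjusted p under 0.05. PHGDH is filled throughout, from 0.67 to 0.86, while ATF4, CHAC1, PSPH and MTHFD2 are filled nowhere.

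Levels were set per transcript length to compare the genes with each other. In knockdown libraries PSAT1 was the highest at 41.9 ± 3.15 CPM per kilobase, followed by ATF4 at 38.3 ± 2.09, PHGDH at 33.8 ± 0.385, SHMT2 at 31.1 ± 2.22 and MTHFD2 at 28.8 ± 0.299 (SD, n = 3). ASNS, DDIT3 and CHAC1 were between 14.7 and 18.0, PSPH was at 8.74 and TRIB3 at 6.24 CPM per kilobase. In control libraries PHGDH was the fifth, at 20.1 ± 2.70 CPM per kilobase, after ATF4, PSAT1, MTHFD2 and SHMT2. Neighbours closer than the sum of their SDs were PSAT1 with ATF4, SHMT2 with MTHFD2, ASNS with DDIT3 and DDIT3 with CHAC1 in the knockdown. In the control they were ATF4 with PSAT1, MTHFD2 with SHMT2, SHMT2 with PHGDH, CHAC1 with ASNS and ASNS with DDIT3. These levels depend on which transcript is taken as the principal one.

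Upstream of ATF4, no gene of the eIF2alpha list rose. Of its 20 tested genes, EIF2AK4 fell, 19 did not pass, and the median log2 fold change was -0.19. For this list and those that follow, 3.90% of all genes tested were called higher and 4.31% lower. The median over all genes tested was 0.01. EIF2AK4, the GCN2 kinase that senses uncharged tRNA, had 138 ± 4.93 CPM in knockdown and 173 ± 10.9 CPM in control (log2 fold change -0.33, edgeR adjusted p = 0.0448), and it lost its call whichever library was left out. EIF2AK3 (PERK, which senses misfolded protein in the endoplasmic reticulum) and EIF2AK2 (PKR, which senses double-stranded RNA) had log2 fold changes of -0.27 and -0.31 (edgeR adjusted p = 0.123 and 0.0893). EIF2AK1, the heme-regulated kinase, had -0.09 (adjusted p = 0.629). PPP1R15A, the ATF4-induced phosphatase subunit GADD34, was at -0.27 on the same scale (adjusted p = 0.200).

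Of 12 tested partners and related bZIP factors, CEBPD rose to 49.7 ± 6.51 CPM in knockdown, against 34.4 ± 0.653 CPM in control (log2 fold change 0.53, edgeR adjusted p = 0.0294), a call kept in 1 of 6 fits with a library left out. CEBPB, CEBPG, ATF3 and ATF5 had log2 fold changes of 0.36, 0.26, 0.16 and -0.46, and none of these passed (edgeR adjusted p from 0.153 to 0.627). The median over the 12 was 0.11.

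Other reported ATF4 targets were mixed. Of 26 tested, 4 rose, 1 fell and 21 did not pass, with a median log2 fold change of 0.04. VLDLR, a lipoprotein receptor, rose to 36.4 ± 3.92 CPM in knockdown, against 21.0 ± 0.873 CPM in control (edgeR adjusted p = 0.00735). KLHL24, a ubiquitin ligase adaptor, rose to 37.8 ± 2.68 CPM, against 23.2 ± 1.65 CPM in control (adjusted p = 0.00770), and NUPR1, a small stress-induced chromatin protein, rose to 25.9 ± 3.20 CPM, against 15.1 ± 1.64 CPM in control (adjusted p = 0.0188). DDIT4, which restrains mTORC1, rose 1.43-fold (adjusted p = 0.0131). STC2, a secreted glycoprotein, fell to 202 ± 0.782 CPM in knockdown, against 290.5 ± 30.7 CPM in control (adjusted p = 0.0178). SESN2, another inhibitor of mTORC1 signalling and a frequent marker of ATF4 activity, was at 0.09 on the log2 scale (adjusted p = 0.727). VLDLR and KLHL24 kept their calls with any library left out, DDIT4 in 4 of 6 such fits, and NUPR1 and STC2 in 2 of 6 each.

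Of 15 amino acid transporters tested, SLC1A5 and SLC6A9 rose, none fell and 13 did not pass, with a median log2 fold change of 0.07. SLC1A5, a carrier of glutamine and other neutral amino acids, had 104, 113 and 111 CPM in knockdown and 57.9, 66.5 and 72.7 CPM in control libraries. No control library came near the knockdown range, and the 1.66-fold rise (edgeR adjusted p = 0.00811) held with any library left out. SLC6A9, the glycine transporter GLYT1, was low, at 6.50 ± 0.215 CPM in knockdown and 3.25 ± 0.368 CPM in control (SD, n = 3 each, edgeR adjusted p = 0.0304), and lost its call whichever library was left out. SLC7A11, the cystine exchanger and an often used ATF4 readout, had 356 ± 3.97 CPM in knockdown and 366 ± 28.7 CPM in control (log2 fold change -0.04, adjusted p = 0.828).

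Among 20 cytosolic aminoacyl-tRNA synthetases, many of which ATF4 induces, WARS1 rose, HARS1 and RARS1 fell and 17 did not pass (median log2 fold change -0.10). WARS1, for tryptophan, had 146 ± 10.5 CPM in knockdown and 99.6 ± 7.81 CPM in control (edgeR adjusted p = 0.0157). RARS1, for arginine, had 110.2 ± 3.31 CPM in knockdown and 149 ± 6.21 CPM in control (adjusted p = 0.0134), and HARS1, for histidine, 30.0 ± 0.828 and 39.7 ± 2.10 CPM in the same order (adjusted p = 0.0233). With a library left out, WARS1 and RARS1 were called in 2 of 6 fits and HARS1 in none.

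Where one-carbon units are used, 3 of 17 tested genes of the folate list rose, MTR and MTHFD1L among them, none fell and 14 did not pass (median log2 fold change 0.19). MTR, methionine synthase, had 89.0, 102 and 94.8 CPM in knockdown and 58.8, 55.8 and 53.4 CPM in control libraries, and the groups were far apart (log2 fold change 0.77, edgeR adjusted p = 0.00351, called in all 16 alternatives).

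In the list of 13 tested transsulfuration, methionine and glutathione genes, CBS rose, SMS fell and 11 did not pass (median log2 fold change -0.08). CBS joins homocysteine to serine at the start of cysteine synthesis. It had 67.4 ± 2.76 CPM in knockdown and 43.5 ± 4.45 CPM in control (1.55-fold higher, edgeR adjusted p = 0.0108) and kept its call with any library left out. SMS, spermine synthase, had 95.2 ± 8.70 CPM in knockdown and 129.8 ± 6.04 CPM in control (adjusted p = 0.0285, called in 1 of 6 fits with a library left out). CTH, the next enzyme after CBS, was too low to be tested.

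**Figure D4:**
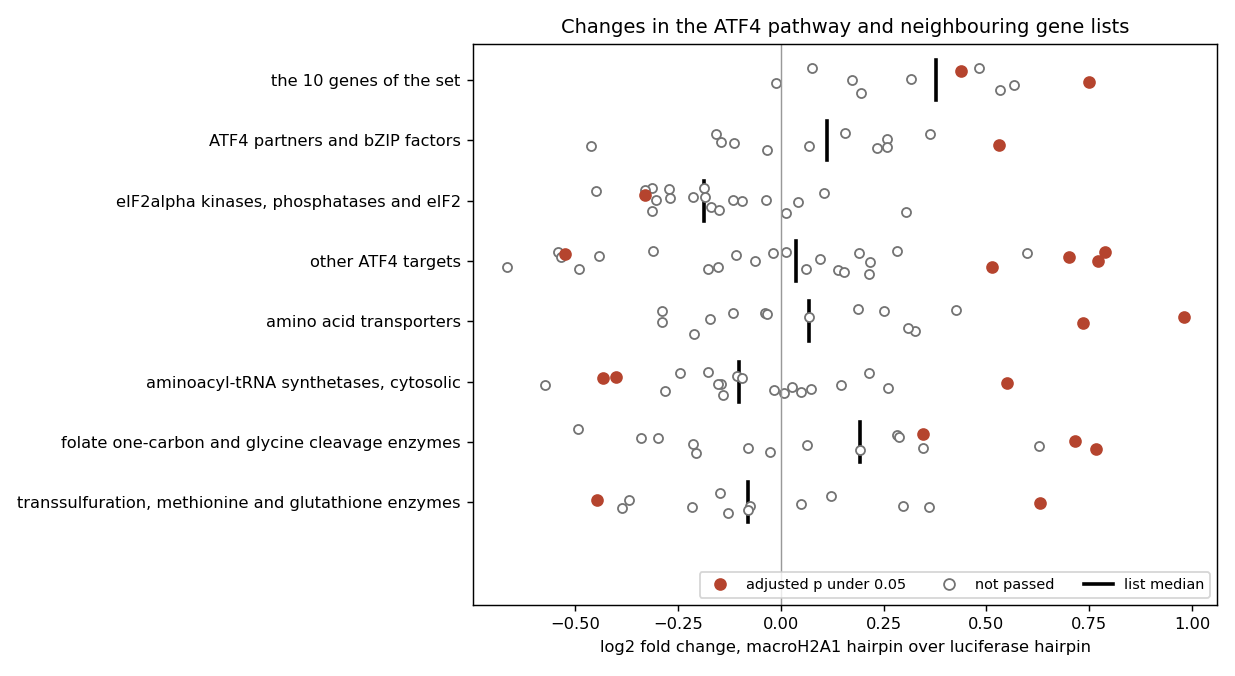
log2 fold change, macroH2A1 hairpin over luciferase hairpin (horizontal axis), of every tested gene in the set of 10 and in 7 neighbouring lists (rows); filled circles have an adjusted p under 0.05 and black bars are list medians. 1 tested gene of the folate list is not drawn. The set of 10 has a median of 0.38 and the eIF2alpha list one of -0.19.

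Over all 7 lists, with each gene counted once, 12 of 121 tested genes rose and 5 fell, 55 had a positive fold change, and the median log2 fold change was -0.04. Over all genes tested, 3.90% were called higher and 4.31% lower, and 50.8% had a positive fold change. The lists were chosen ones, so these counts describe them and are no test. Of the 17 called, VLDLR, KLHL24, SLC1A5 and MTR kept their calls in all 16 alternatives.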

How the data were processed

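RNA of 3 macroH2A1 and 3 luciferase hairpin libraries was depleted of ribosomal RNA and sequenced in a single lane with strand-keeping dUTP libraries, per the labels' protocols. Counts of reads for each Ensembl gene were deposited unnormalized; the submitters' processing notes name CASAVA 1.7, GSNAP, HTSeq and hg19. Neither annotation nor strand setting is stated, so overlapping genes are uncertain, and reads that align to several places are in no gene's count. Such reads were 64.4% to 66.6% of those listed in knockdown and 67.6% to 68.8% in control files, and reads in genes 11.9% to 13.6% and 13.1% to 13.7%. The lines that name no gene were left out. A second deposited table holds, per the file headers, a mean signal (counts over size factors), a ratio, its log2 and p-values, raw and adjusted; the processing notes name DESeq 1.10.1. Its log2 ratios lie within 0.00293 of knockdown over control computed from the deposited counts.

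Genes were filtered with filterByExpr (minimum count 10), scaled by TMM, then fitted in edgeR 4.0.16 by glmQLFit with glmQLFTest (R 4.3.3), with group as the only term, over all 13445 genes passing. The SE is the log2 fold change over the square root of F. CPM is over TMM-scaled totals, and CPM per kilobase uses the longest principal transcript of GENCODE 29. Symbols came from the Ensembl identifier (47153 matched). Of 177 list and marker entries, 1 had no match. Alternatives were 3 scalings, 2 filters, 2 gene sets, DESeq2 1.42.0, limma-voom (limma 3.58.1), a replicate block, each library left out and a stricter threshold. The edgeR, DESeq2 and limma-voom fits were also run on simulated counts with known changes. Those counts were drawn with the spread that edgeR estimated from these data, so they are no independent check of the fits. The other steps were not run in this way. Libraries of a group differed by more than counting noise (chi-square 25.2 to 37.7 per degree of freedom), so none was treated as a copy. The members and lists were chosen with earlier results of these data known. Genes named are the 10 members, MACROH2A1, every called gene of the 7 lists (with an exception not reported here), 16 pathway genes named whether or not they passed, and the 5 genes most like ATF4 and PHGDH. CTH and the markers named were chosen after their values were seen.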

Additional observations from a re-analysis of the deposited data

How the results depend on the processing

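Over all genes, 1104 were called, against 2060 with testing limited to genes in the authors' table, 317 at an adjusted p under 0.01 and 427 to 564 with 1 library left out. Of the 10 genes, 2 were called, against 6 among the genes of the authors' table and 1 with library totals only, at an adjusted p under 0.01 and with any library left out, where PHGDH remained. Of the genes in the 7 lists, 17 were called, against 36 among the genes of the authors' table and 7 to 9 with 1 library left out. Fewer libraries leave fewer degrees of freedom, and what lowered these counts was not tested. With the replicate number as a block, the calls were 416 over all genes, 1 of the 10 (PHGDH) and 5 in the lists. The numbers are not stated to pair the libraries, and same-numbered libraries did not deviate together (r = -0.03, -0.02 and -0.17). Across 160 values of the 10 genes under 16 alternatives, 139 kept direction and side of the threshold, 8 lost a call, all of PSAT1, 7 gained one and 6 changed sign. The sign changes were CHAC1 at -0.0095 (log2) without knockdown replicate 3 (its range with 1 library left out ended at 0.1335), and PSPH at 0.0070 with upper quartile scaling, 0.0226 with at least 50 counts in 3 libraries, 0.0039 among genes of the authors' table, 0.0224 without knockdown replicate 1 and 0.0082 without control replicate 3 (the lowest with 1 library left out was -0.0368). No scaling moved the median of all genes by 0.1. Genes near 10 CPM, such as DDIT3 and TRIB3, rest on 45 to 80 counts a library.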

Other observations

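The genes whose log2 CPM followed ATF4 most closely over the 6 libraries were BTBD2, HJURP, RFTN1, H2AC21 and the pseudogene RCN1P2, with Pearson r from 0.984 to 0.996. Those closest to PHGDH were FHL1, DTX4, FBLN5, PAPPA and KIF26B, with r from 0.994 to 0.999. They are the top of 13444 genes compared over only 6 libraries that fall into 2 groups, so the values describe these libraries, and no p is given. FBLN5, an elastic fibre protein, had a log2 fold change of 1.13, and FHL1, a LIM domain protein, of 0.44. DTX4, PAPPA and KIF26B had log2 fold changes of 0.60, 0.87 and 1.93. Those of the genes closest to ATF4 were from 0.11 to 0.54. Genes picked for following PHGDH, which differed between the groups, are likely to differ between them too. These fold changes are therefore a description, not a test.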
